A study of Drosophila melanogaster with 18 samples.

Results

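The genes described here encode the core of Dpp/BMP signaling in Drosophila: the ligand genes dpp and gbb, the receptor genes tkv, sax and put, the Smad genes Mad, Med and Dad, and the nuclear factor genes brk and shn. These 10 genes were chosen by name for their place in the pathway, not for any measured value, though earlier results of these data were known. They were looked up by symbol in the deposited lists of genes bound in the adult midgut. A gene found in no list counts as not listed. Of the 10 genes, 8 were in at least 1 list, and 7154 genes were listed in all.

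In this pathway, BMP ligands assemble type I receptors (Tkv and Sax) with a type II receptor (Put), and the type I receptor then phosphorylates the receptor-regulated Smad, Mad. Phosphorylated Mad joins the common Smad, Med, and the complex enters the nucleus, where it works with the zinc-finger protein Shn to silence brk, the gene of a repressor of Dpp targets, and where it turns on Dad, an inhibitory Smad that feeds back on the receptors. In the adult fly midgut the pathway is known for roles in stem cell self-renewal and proliferation, in the upkeep of enterocytes and in the identity of the acid-secreting copper cells.

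The study mapped binding by Targeted DamID (TaDa) in midguts of mated adult females kept for 72 hours at 29°C. In TaDa a protein is fused to the bacterial methylase Dam, which marks the sequence GATC near the places where the fusion sits. Each of 6 groups had 3 samples, 18 in all. Dam alone (UAS-LT3-Dam), Dam fused to the polymerase subunit (UAS-LT3-Dam-PolII) and Dam fused to the RA isoform of the ETS factor Ets21c (UAS-LT3-Dam-ets21c-RA) were each driven by esg-Gal4 in intestinal stem cells and enteroblasts (ISCs/EBs) or by Myo1A-Gal4 in absorptive enterocytes (ECs). All 6 groups also carried UAS-GFP and tub-Gal80-TS, the temperature-sensitive repressor that keeps Gal4 silent until the shift to 29°C. DNA of each sample came from pooled whole midguts without stress or infection, and the esg driver does not separate stem cells from enteroblasts.

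The deposited table gives, for each cell type and fusion, a list of bound genes with 1 height per gene, the authors' log2 ratio of fusion over Dam alone, and 1 FDR. A PolII height is the mean over a transcript and stands for polymerase occupancy, not for the amount of RNA. An Ets21c height belongs to a peak assigned to genes within 5 kb that have no other gene between them and the peak. There is no value per sample, so no spread between replicates, no interval and no test can be given for any height, and read depth is unknown. The authors left 1 noisy Ets21c replicate of each cell type out. Heights are therefore described below with their place in their own list: 2216 genes with a median of 0.93 for PolII in ISCs/EBs, 948 and 0.46 for PolII in ECs, 5184 and 0.52 for Ets21c in ISCs/EBs, and 4854 and 0.51 for Ets21c in ECs. Both fusions of a cell type were divided by the same Dam alone samples. Their values are therefore set side by side, gene by gene, and the overlap of their lists was not tested.

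The drivers were checked against PolII at marker genes. All 6 ISC/EB markers (such as esg and Dl) were listed for PolII in ISCs/EBs and 0 of 6 in ECs, whereas 3 of 5 EC markers were listed in each cell type. Of these, mex1 (1.11 in ISCs/EBs and 0.59 in ECs) and GATAe (1.54 and 0.56) were listed in both, Myo31DF in ISCs/EBs alone (0.47) and Jon99Ci in ECs alone (0.58), so the EC markers did not set the lists apart as the ISC/EB markers did. Of markers of other cells, none of the 4 enteroendocrine and 2 tracheal markers was in a PolII list, while Mef2 (0.35) and how (0.37) of 4 visceral muscle markers and srp (0.86) of 3 hemocyte markers had PolII in ISCs/EBs only. The other muscle and hemocyte markers, Mhc, bap, Hml and NimC1, were in none of the lists. Ets21c was listed at 6 of 6 ISC/EB markers in ISCs/EBs and 1 of 6 in ECs. It was listed at 4 of 5 EC markers in each cell type. Of all genes, 28.9% and 27.1% were in these Ets21c lists. Of the markers of other cells, Ets21c was listed at Mef2 (0.60 in ISCs/EBs and 0.63 in ECs), srp (1.02 and 0.79) and the tracheal btl (0.56 and 0.31). It was also listed in ISCs/EBs alone at how (0.62) and the enteroendocrine pros (0.73), and in ECs alone at the enteroendocrine Dh31 (0.99). The part of such cells in the values below was not tested.

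In ISCs/EBs, PolII was listed at 6 of the 10 pathway genes, against 12.4% of all annotated genes: tkv, sax, put, Mad, Dad and shn. In ECs it was listed at 1 of 10, shn, against 5.30% of all genes. Ets21c was listed at 8 of 10 in ISCs/EBs, against 28.9% of all genes, and at 8 of 10 in ECs, against 27.1%, and the 8 genes were the same in both cell types, where 19.1% of all genes are in both Ets21c lists and 66.2% of those bound in ISCs/EBs are bound in ECs too. The genes without an entry anywhere were the ligand genes dpp and gbb, as were 60.1% of all genes. Long genes are listed more often: among genes at least as long as gbb, the shortest of the 10, 19.8% had PolII in ISCs/EBs, 38.2% had Ets21c in ISCs/EBs and 36.1% had it in ECs. The 8 listed genes are longer than gbb, from brk, longer than 70.4% of all genes, to shn, longer than 98.5%. These shares are thus not matched to their length. At a stricter height of at least 0.5 the Ets21c count fell to 5 in ISCs/EBs and 6 in ECs, and the PolII count in ECs to 0. Of all genes in the Ets21c lists, 41.5% in ISCs/EBs and 46.7% in ECs lay below 0.5. The median of the whole PolII list in ECs, 0.46, was also below 0.5.

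**Figure D1:**
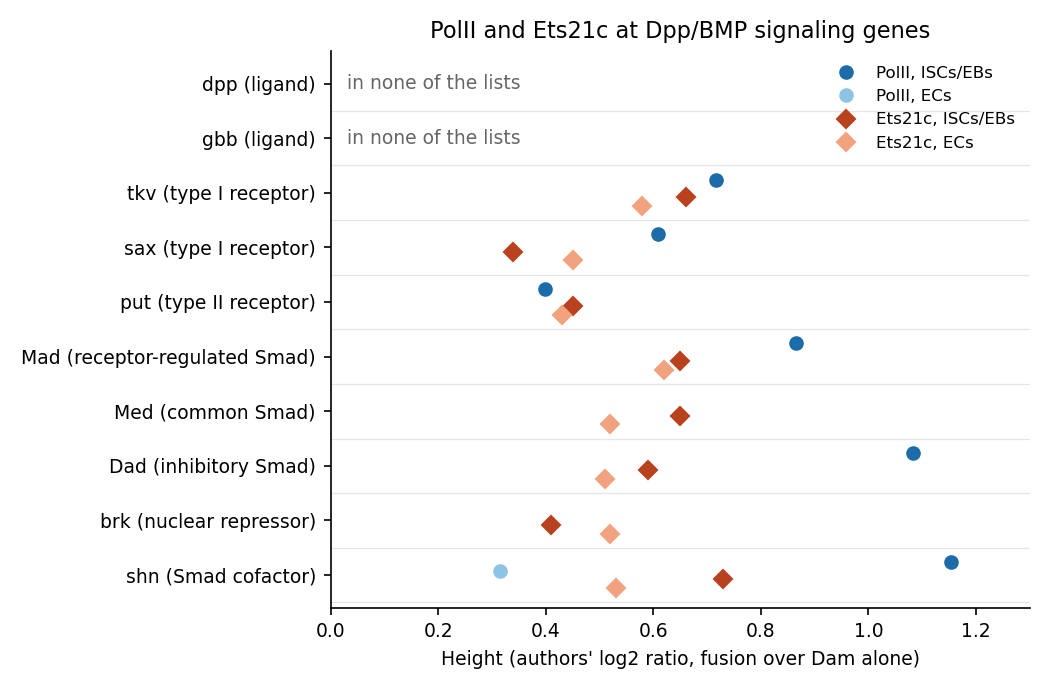
Height (log2 ratio of fusion over Dam alone, horizontal axis) of each of the 10 pathway genes in each list, with circles for PolII, diamonds for Ets21c, dark colors for ISCs/EBs and light colors for ECs; each point is the authors' single value. The ligand genes dpp and gbb have no point, all 8 other genes have both Ets21c points, and shn alone has a PolII point in ECs, at 0.32.

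The ligand genes came first in the pathway and last in these data. The gene dpp, which encodes the BMP2/4-type ligand Decapentaplegic, spans 31452 bases (chr2L:2428372-2459823, plus strand, dm6), longer than 96.3% of all genes, and was in none of the lists. The only listed gene within 5 kb of it was a tyrosine tRNA gene, tRNA:Tyr-GTA-1-2, 100 bases past its end, with an Ets21c height of 0.36 in ECs. The gene gbb (chr2R:23851562-23853247, plus strand), which encodes the BMP5/6/7/8-type ligand Glass bottom boat, is short at 1686 bases, close to the median of 1691 bases of all genes.

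Around gbb, however, the lists were not empty. Its neighbors ytr, which lies 81 bases from it, eIF6, a ribosome biogenesis factor gene, and asRNA:CR45928 all had an Ets21c height of 0.43 in ECs with the same FDR of 0.00762. PolII heights in ISCs/EBs were 0.66 for ytr and 0.42 for bgcn, which lies 22 bases past gbb. Both ligand genes have the GATC sites that TaDa needs. Within 5 kb on either side of the start, dpp had 34 of them and gbb 57, against a median of 33 over all genes. Absence from a list means only that no value passed the authors' thresholds in these cells or, for Ets21c, that no passing peak was assigned to the gene. A peak near a ligand gene may have gone to a neighbor that lies between, and without peak positions this was not tested.

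Of the receptor genes, all 3 were bound by PolII in ISCs/EBs and by Ets21c in both cell types, with no PolII entry in ECs. Of all genes, 12.4% had PolII in ISCs/EBs, 19.1% had Ets21c in both cell types and 5.30% had PolII in ECs. The highest of the 3 receptor genes in each list that held them was tkv (Thickveins, the main type I receptor for Dpp). Its PolII height was 0.72 in ISCs/EBs, above 31.4% of that list (FDR 1.77e-10). Its Ets21c height was 0.66 in ISCs/EBs, above 80.0% of the list, and 0.58 in ECs, above 69.3%. The gene covers 52385 bases on the minus strand (chr2L:5219000-5271384) with 4 transcript starts and holds several other genes. Of these, lncRNA:CR44744, which lies inside tkv and overlaps none of its exons, had exactly the height and FDR of tkv in both cell types, so that both entries may rest on 1 peak.

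Other genes nested in tkv had Ets21c heights of their own. The aspartate tRNA gene tRNA:Asp-GTC-2-1 had 0.80 in ISCs/EBs and 0.54 in ECs, the cytochrome P450 gene Cyp4ac1 had 0.29 and 0.52, and its neighbors Cyp4ac2 and Cyp4ac3 had 0.43 and 0.46 each. Hence the span of tkv carried more than 1 Ets21c entry in each cell type, and the value listed under tkv is only 1 of them. None of these nested genes was in a PolII list.

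The other type I receptor gene, sax (Saxophone; chr2R:7806484-7810067, plus strand), is short at 3584 bases and lies close to its neighbors. Its PolII height in ISCs/EBs was 0.61 (FDR 0.00485, above 21.7% of the list). Its Ets21c height was 0.34 in ISCs/EBs, the lowest of the 8 genes and above only 6.48% of the list, and 0.45 in ECs, above 30.0%. In ISCs/EBs the value was shared, with its FDR, by TTLL12, which abuts the end of sax, and in ECs by Nop17l, which begins 98 bases from the start of sax on the other strand. The entries of sax may thus rest on a peak shared with a different neighbor in each cell type.

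The type II receptor gene, put (Punt; chr3R:14619030-14625703, minus strand), had the lowest PolII height of the 6 listed genes, 0.40 (FDR 0.00935, above 6.27% of the list). Its Ets21c heights were 0.45 in ISCs/EBs and 0.43 in ECs, above 27.6% and 24.3% of the lists. The histone gene His4r starts 51 bases away in the opposite direction, and in ISCs/EBs it had the height and FDR of put, whereas in ECs it was not in the Ets21c list. PolII was listed at His4r with 2.23 in ISCs/EBs and 1.32 in ECs, the latter being the maximum of its list. TaDa carries no strand, and GATC fragments are the unit of signal, so the pair cannot be told apart at their shared start. Farther off, CG7886 and Cad88C had Ets21c heights of 0.74 in ISCs/EBs and 0.41 in ECs each.

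The stretch between the starts of put and His4r, 51 bases long, is shown because both starts face it. It was searched for the ETS core GGAA on both strands, which would stand in capitals, and held none.
put-His4r gap, chr3R:14625704-14625754 (plus strand): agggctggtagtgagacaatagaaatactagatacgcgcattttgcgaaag

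The Smad genes differed in their PolII entries. Mad, the gene of the receptor-regulated Smad (chr2L:3146056-3159643, minus strand), had a PolII height of 0.87 in ISCs/EBs (FDR 9.87e-10, above 44.6% of the list). Its Ets21c heights were 0.65 in ISCs/EBs and 0.62 in ECs, above 78.2% and 75.7% of the lists. In ECs this was the highest Ets21c value of the 8 genes, and no gene within 20 kb shared it. Among the neighbors, toc had Ets21c heights of 0.56 and 0.49, and ND-B14.5B, a subunit gene of mitochondrial complex I that lies 207 bases past the end of Mad, had PolII heights of 1.24 in ISCs/EBs and 0.56 in ECs without an Ets21c entry.

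Med (Medea, the common Smad; chr3R:31611046-31615375, plus strand) was in neither PolII list. Its Ets21c heights were 0.65 in ISCs/EBs, above 78.2% of the list, and 0.52 in ECs, above 52.4%. In both cell types the same height and FDR were listed for CycG, a cyclin gene on the minus strand that overlaps an exon of Med. CycG also had PolII heights of 1.23 in ISCs/EBs and 0.34 in ECs. So of this overlapping pair CycG was listed for both proteins and Med for Ets21c alone, and both Ets21c entries may come from 1 peak.

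Dad (Daughters against dpp, the inhibitory Smad; chr3R:17054007-17070408, plus strand), which is a feedback target of the pathway in many tissues, had a PolII height of 1.08 in ISCs/EBs (FDR 1.07e-13, above 62.2% of the list). Its Ets21c heights were 0.59 in ISCs/EBs, above 66.5% of the list, and 0.51 in ECs, above 49.3%. None of its neighbors shared these values. In ECs, Keap1, a regulator of the oxidative stress response, and mRpS11 shared an Ets21c height of 0.42, both past the end of Dad, and Keap1 kept a PolII entry in ECs (0.35) where Dad had none.

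The windows of 250 bases before the start of Mad and of Dad are shown because these Smad genes were listed for PolII and Ets21c in ISCs/EBs with an Ets21c entry of their own. Capitals mark the ETS core, GGAA or its reverse complement TTCC, of which each window holds 4. Over all 17681 genes with such a window 82.8% held at least 1, with a median of 2 and a 95th percentile of 5.
Mad promoter, chr2L:3159644-3159893 (minus strand): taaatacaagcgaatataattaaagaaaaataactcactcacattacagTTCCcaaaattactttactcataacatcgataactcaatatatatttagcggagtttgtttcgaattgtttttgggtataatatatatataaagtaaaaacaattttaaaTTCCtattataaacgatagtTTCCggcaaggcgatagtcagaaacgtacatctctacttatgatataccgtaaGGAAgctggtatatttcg
Dad promoter, chr3R:17053757-17054006 (plus strand): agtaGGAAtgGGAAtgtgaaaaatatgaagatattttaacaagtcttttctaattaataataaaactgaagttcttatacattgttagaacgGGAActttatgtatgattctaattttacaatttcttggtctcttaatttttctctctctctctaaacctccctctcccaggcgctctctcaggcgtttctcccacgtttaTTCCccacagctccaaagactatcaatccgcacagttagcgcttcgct

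The nuclear genes brk and shn act on opposite sides of the pathway. The gene brk (Brinker, the repressor of Dpp targets; chrX:7307939-7311132, plus strand) was in neither PolII list. Its Ets21c heights were 0.41 in ISCs/EBs, above 18.8% of the list, and 0.52 in ECs, above 52.4%. It lies within the far longer gene CG1677 and within lncRNA:CR44357, both on the minus strand. These had Ets21c heights of 0.77 in ISCs/EBs and 0.87 in ECs (FDR deposited as 0), as did the autophagy gene Atg5, 3489 bases away, so the entry of brk differed from that of the genes around it. PolII in ISCs/EBs was listed at CG1677 (0.36) and Atg5 (0.89).

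The gene shn (Schnurri, the zinc-finger partner of the Mad-Med complex; chr2R:11159086-11217394, plus strand) had the highest value of the 10 genes for PolII and for Ets21c in ISCs/EBs. Its PolII height was 1.15 in ISCs/EBs (FDR 3.86e-32, rank 713 of 2216) and 0.32 in ECs (FDR 8.61e-15, rank 909 of 948). Its Ets21c height was 0.73 in ISCs/EBs, rank 551 of 5184, and 0.53 in ECs, above 55.6% of that list. No gene within 20 kb shared any of these values. With 58309 bases it is the longest of the 10, longer than 98.5% of all genes, and its PolII entry in ECs lay just above the smallest height of that list, 0.30. At the far end, CG9084 lies 21 bases from shn and had PolII heights of 1.17 and 0.45 and an Ets21c height of 0.45 in ISCs/EBs.

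**Figure D2:**
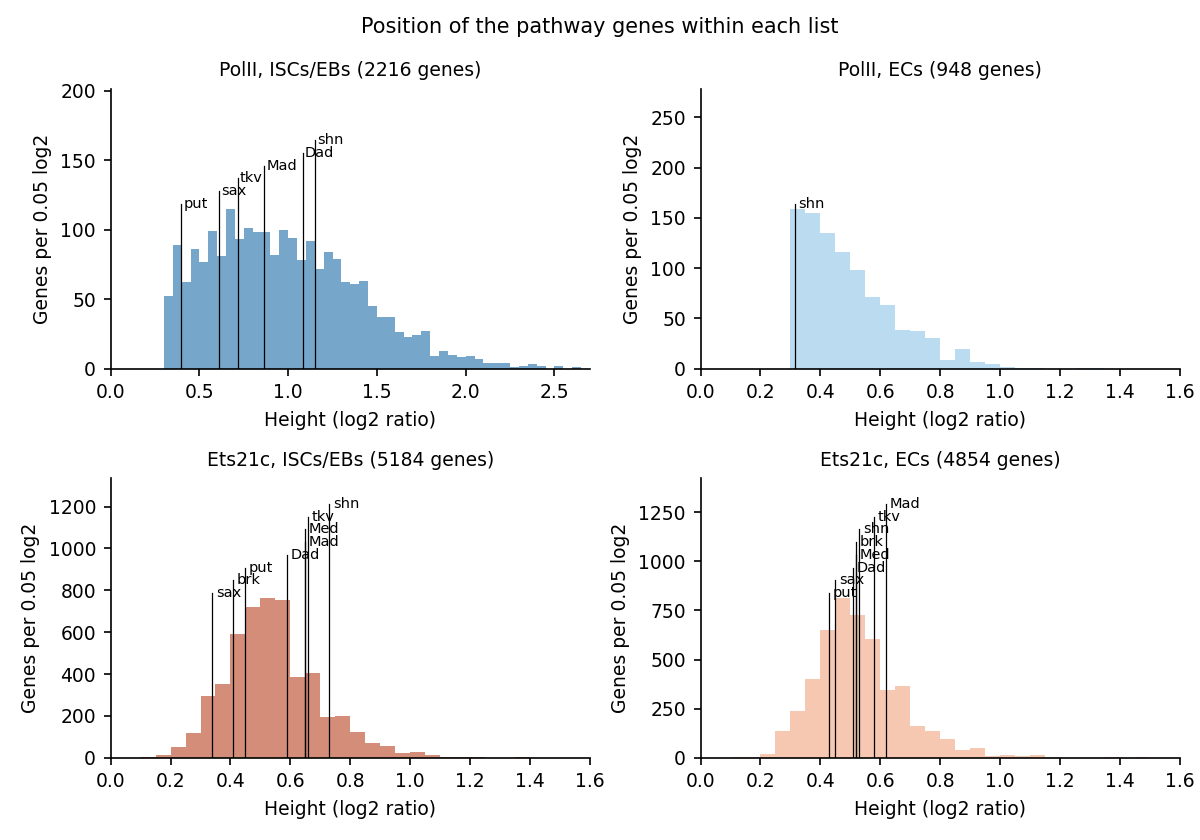
Number of genes per 0.05 log2 (vertical axis) by height (log2 ratio, horizontal axis) in each of the 4 lists, with a labeled line at each pathway gene. In the PolII list of ISCs/EBs the genes run from put (0.40) to shn (1.15), and in both Ets21c lists they sit within the bulk of the distribution, between 0.34 and 0.73.

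Between the cell types, Ets21c heights of the 8 genes were higher in ISCs/EBs for 6 and higher in ECs for sax and brk, where 56.3% of all genes in both Ets21c lists were higher in ISCs/EBs. The differences of ISCs/EBs minus EC height were 0.20 for shn, 0.13 for Med, 0.08 for tkv and Dad, 0.03 for Mad, 0.02 for put and -0.11 for sax and brk. Their median was 0.06, and that of all genes in both lists 0.03. Without replicate values, none of these differences can be set against an error. By place in the list the order changed little: shn stood 32.5 percentage points and Med 25.8 points higher in ISCs/EBs, and the differences of brk and sax were -33.6 and -23.5 points.

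PolII differed more between the cell types. Of the 6 genes in the PolII list of ISCs/EBs, shn alone was also in that of ECs, 1 of 10, where 3.96% of all genes are in both PolII lists and 32.0% of those listed in ISCs/EBs were listed again. The difference in height of shn was 0.84, near the median of 0.77 over the 708 genes in both PolII lists, of which 99.6% were higher in ISCs/EBs. The EC heights as a whole were lower, and the missing entries of tkv, sax, put, Mad and Dad in ECs cannot be told apart from this general difference between the lists.

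**Figure D3:**
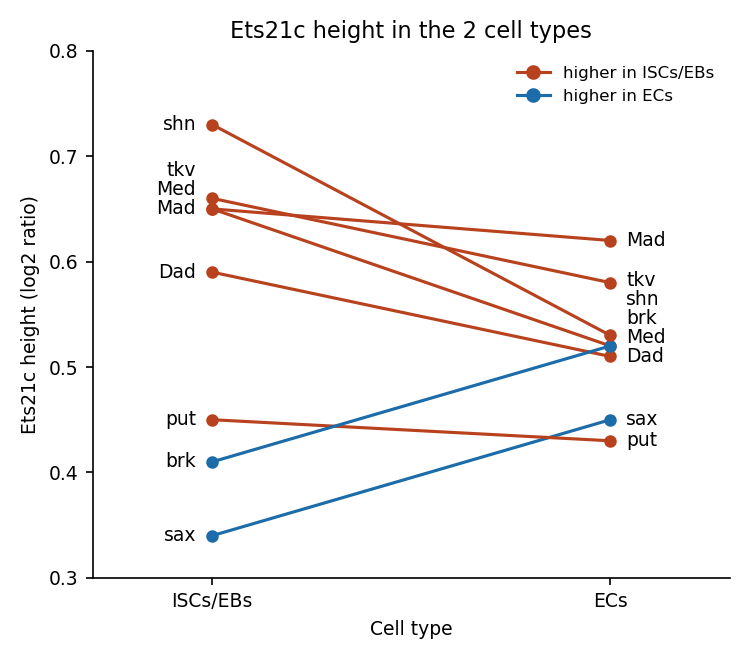
Ets21c height (log2 ratio, vertical axis) of the 8 listed pathway genes in ISCs/EBs (left) and ECs (right), with a line joining the values of a gene, red where higher in ISCs/EBs and blue where higher in ECs. Names are moved apart where points crowd, the values run from 0.34 to 0.73 in ISCs/EBs and from 0.43 to 0.62 in ECs, and sax and brk are the genes that are higher in ECs.

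The genes with heights most like those of a pathway gene were found by the Euclidean distance over the lists that hold it, among 1183 genes for those in 3 lists and 386 for shn in 4. Those nearest to tkv were for (0.04), which encodes a cGMP-dependent protein kinase, and ND-39 (0.04), a complex I gene. Nearest to Dad were Gdh (0.02), glutamate dehydrogenase, and sty (0.03), the receptor tyrosine kinase antagonist Sprouty. Nearest to Mad were Jafrac2 (0.04) and jar (0.04), and to put SMSr (0.04) and nrv1 (0.04). Nearest to shn were CycG (0.11) and Baldspot (0.13). For sax they were Ets21C (0.03) and ced-6 (0.05). The coding sequence of Ets21C is in the Ets21c fusion transgene, so its Ets21c heights, though not its PolII height, may hold reads from the transgene. How close the nearest genes lie for other genes was not computed.

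Sequence around the starts was searched for sites that bear on the assay and on the factors. These were GATC for Dam, CGGAAG for ETS factors (which includes the core GGAA) and GGCGC as 1 form of the Brinker core. Other forms of the Brinker core were not searched. The last was the Smad silencer element, to which Mad, Med and Shn bind at brk. All were searched on both strands. Of the 23 transcript starts of the 10 genes, none had CGGAAG in the 250 bases before it, where 5.21% of all genes had one before their start. The ETS core was before 18 of 23 starts, and 82.8% of all genes had one there. At their outermost starts dpp, put and brk had none. GATC was before 8 of the 23 starts, and 38.8% of all genes had a GATC there. GGCGC stood before 7 of the 23 starts, and 20.9% of all genes had one. There were 2 copies each at brk and at 1 start of shn. Another start of shn, 2 starts of dpp and a start each of Mad and Dad had 1 copy each. The shares of all genes take only the outermost start of each gene, whereas the 23 starts include several of some genes. At the outermost starts of the 10 genes, GGCGC stood before Dad and brk alone.

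Within 5 kb on either side of the start, 94.7% of all genes had at least 1 CGGAAG, with a median of 3. The pathway genes had 9 at gbb, 8 at sax, 6 at Dad, 3 at put and brk, 2 at dpp, tkv and Med, 1 at Mad and none at shn. The unlisted gene gbb thus had the most, and shn, with the highest Ets21c height in ISCs/EBs, had none in that window, although its whole span held 11. The window of shn was also poor in GATC, with 10 sites, and only 0.995% of genes had fewer, whereas 102 lie in its span. These are matches of letters and not binding sites, and peak positions were not used here.

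**Figure D4:**
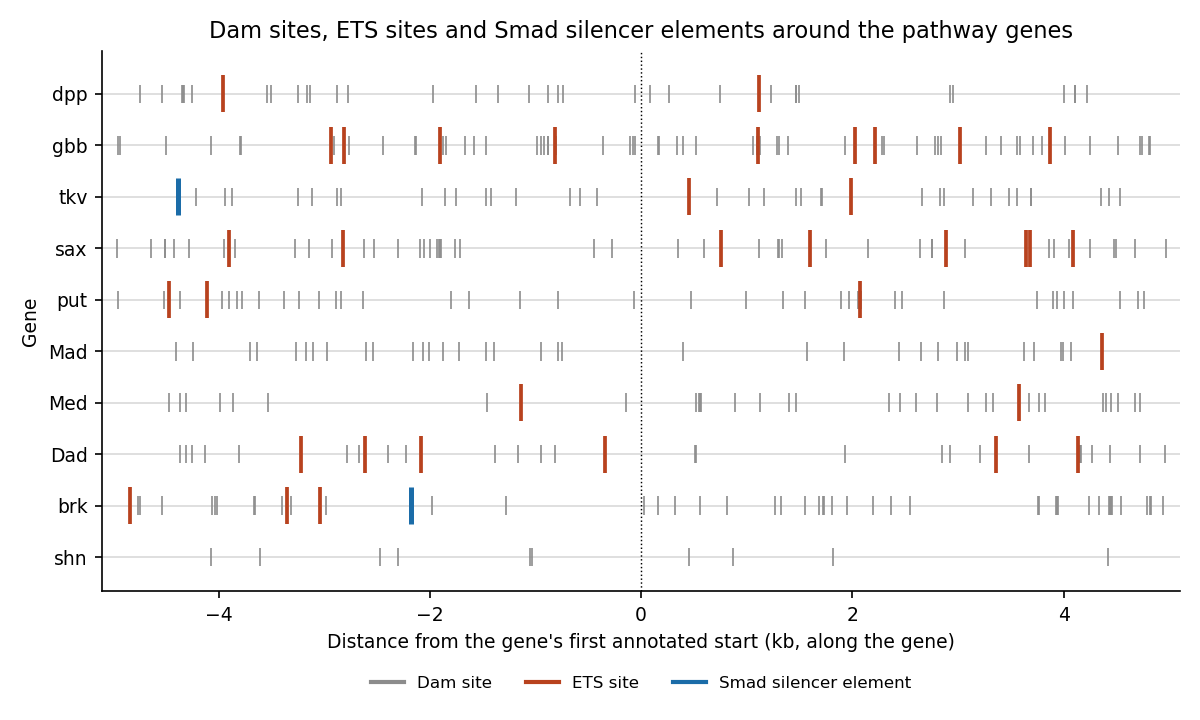
Positions (kb from the start of the gene, in its direction, horizontal axis) of Dam sites (gray), ETS sites (red) and Smad silencer elements (blue) within 5 kb on either side of the start of each of the 10 pathway genes (rows). Dam sites number from 10 at shn to 57 at gbb, ETS sites from 0 at shn to 9 at gbb, and brk and tkv have 1 silencer element each.

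The nearest CGGAAG is shown for the genes whose Ets21c entry was not shared with a neighbor and whose window held one, and for tkv, with the site in capitals and 10 bases on each side. Its first base in the direction of the gene lay 342 bases before the start of Dad, outside annotated genes. At brk it lay 3043 bases before the start, within CG1677 and lncRNA:CR44357. It lay 445 bases after the start of tkv and 4360 bases after that of Mad.
Dad ETS site, chr3R:17053655-17053680 (plus strand): tatctgtccgCGGAAGcgaaacgaaa
brk ETS site, chrX:7304886-7304911 (minus strand): gtggcggagaCGGAAGacgagtggta
tkv ETS site, chr2L:5270924-5270949 (plus strand): aacaattcagCGGAAGgtgtccttaa
Mad ETS site, chr2L:3155268-3155293 (minus strand): gcaggacaggCGGAAGggttaagact

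The Smad silencer element was found in 2.72% of all windows of 5 kb on either side. It was present once each at brk and tkv of the 10 genes. At brk, whose silencing through such elements is known from embryos and wing discs, the match lay 2177 bases before the start. It lay within CG1677 and lncRNA:CR44357, outside annotated exons, and whether it is a known element was not tested. At tkv the match lay 4399 bases before the start, within an exon of the neighboring gene Nin. Capitals mark the element, with 7 bases on each side.
brk silencer match, chrX:7305755-7305784 (minus strand): aaaagccGACGACGGACTGTCTGgaaagat
tkv silencer match, chr2L:5275761-5275790 (plus strand): ttgctgcGGCGTCACGGTGTCTGtaaatca

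Beyond the core, 38 further genes of the pathway were looked up, chosen by role: other ligands, receptors and Smads, extracellular regulators, cytoplasmic regulators, nuclear cofactors and targets known from other tissues. Of these, 17 were in the Ets21c list of ISCs/EBs (28.9% of all genes), with a median height of 0.54, and 14 in that of ECs (27.1%), with a median of 0.49. PolII was listed at 6 in ISCs/EBs (12.4%) and at 0 in ECs (5.30%). Beside genes at least as long as gbb, the Ets21c shares of the 38 stood out less. They were 44.7% against 38.2% for ISCs/EBs, and 36.8% against 36.1% for ECs. The PolII shares were below those of such genes, at 15.8% against 19.8% for ISCs/EBs and 0% against 6.93% for ECs. The 38 genes were not matched to any background by length. In all, 19 were in at least 1 list and 19 in none, where 60.1% of all genes are in none. Ets21c was listed in both cell types at 13 of the 38, where 19.1% of all genes are, and these were 13 of the 17 listed in ISCs/EBs, where 66.2% of all such genes were listed again in ECs.

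The other ligand genes are scw, mav, Actbeta, daw and myo. Of these 5, mav (Maverick) was listed, with Ets21c at 0.62 in ISCs/EBs and 0.47 in ECs. Neither of the other receptor genes, wit and babo, was listed. Beside these ligand and receptor genes, 60.1% of all genes are in none of the lists. Smox, the Smad of the Activin branch, had PolII at 0.66 and Ets21c at 0.47 in ISCs/EBs and no entry in ECs, and its Ets21c values were also those of CG17982, 270 bases away.

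Extracellular regulators are the largest of the groups, and 10 of the 15 were in at least 1 list. Of all annotated genes, 60.1% are in none. Among them dally, which encodes a glypican that shapes the Dpp gradient, had Ets21c at 0.68 in ISCs/EBs and 0.44 in ECs with PolII at 0.39 in ISCs/EBs, and the other glypican gene, dlp, had Ets21c at 0.51 and 0.42. The ligand-binding genes cv and cv-2 had PolII at 1.01 and 0.33 in ISCs/EBs, and magu, a Dpp modulator of the wing disc, had 0.46. Their Ets21c heights were 0.54 and 0.53 for cv, 0.41 and 0.48 for cv-2, and 0.34 and 0.51 for magu, in ISCs/EBs and ECs. Some of these values, too, were listed for neighbors within 20 kb: those of dally for lncRNA:CR45823, of cv for asRNA:CR45525 and of magu for Def and asRNA:CR44297 in both cell types, of dlp for CG43121 in ISCs/EBs, and, in ECs, of dally for CG32026 and of magu for sel and CG44296. The proprotein convertase gene Fur1, whose product cuts BMP precursors, had the highest Ets21c height of the 38 in ECs, 0.72, against 0.61 in ISCs/EBs.

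The BMP antagonist gene sog had Ets21c at 0.51 and 0.40. The collagen IV genes vkg and Col4a1, whose products bind Dpp, lie 1417 bases apart and shared an Ets21c height of 0.57 in ISCs/EBs with 6 further genes nearby. In ECs vkg had 0.30, as did CG31917 and Rtnl1, and Col4a1 was not listed. Fs (Follistatin) was listed in ECs alone, at 0.32, with the height and FDR of its neighbors Hex-C and CG8079. Of the cytoplasmic regulators, Fkbp12 (0.54), whose product binds type I receptors, and nmo (0.41), a kinase that phosphorylates Mad, had Ets21c in ISCs/EBs alone, the former with the values of Tab2 and the latter with those of CG8209 and CG8038, and Sara and Smurf were in none of the lists.

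Of the 4 nuclear cofactor genes, 3 were in each Ets21c list, against 28.9% and 27.1% of all genes, and the other in a PolII list. The acetyltransferase gene nej had Ets21c at 0.60 and 0.50, the corepressor gene gro at 0.52 and 0.61, and Snoo, the Ski/Sno homolog, at 0.55 and 0.64, in ISCs/EBs and ECs. The corepressor gene CtBP, a partner of Brk, was listed for PolII alone, at 0.61 in ISCs/EBs. Of the 7 target genes of other tissues, pnr was listed, with Ets21c at 0.44 and 0.50, and bi, salm, salr, vg, lab and bam were not. Of all genes, 60.1% are in none of the lists. The gene lab, a target in the copper cell region, was thus in none of the lists of these whole-midgut samples.

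**Figure D5:**
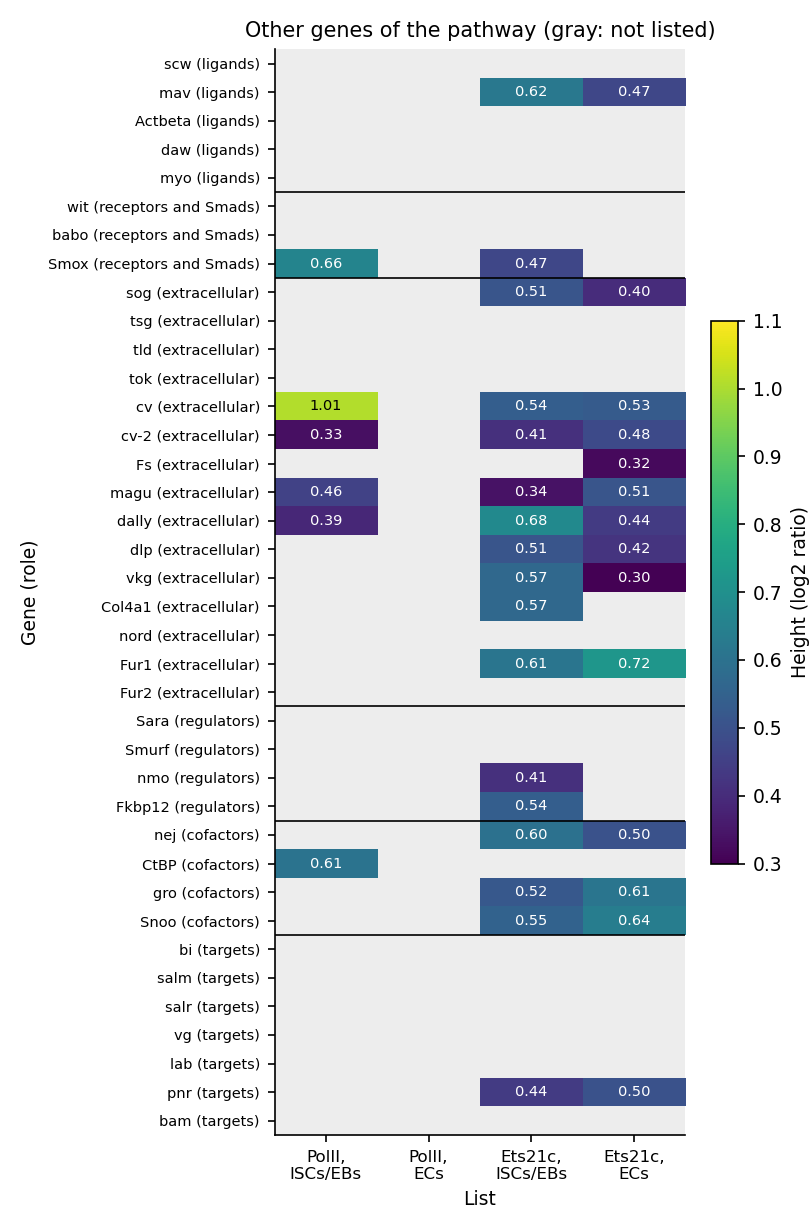
Grid of the 38 further pathway genes (rows, grouped by role) by list (columns), with the color and the printed number giving the height (log2 ratio of fusion over Dam alone) and gray cells for genes not listed. PolII heights run from 0.33 (cv-2) to 1.01 (cv), all in ISCs/EBs, and Ets21c heights from 0.30 (vkg) to 0.72 (Fur1), both in ECs.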

How the data were processed

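TaDa libraries of 18 midgut samples were processed by the authors, who aligned reads, divided fusion by Dam alone as log2 ratios, averaged those of PolII over transcripts and called Ets21c peaks. The deposited table holds only these pooled log2 heights and the authors' FDR, used like a q-value but estimated per replicate, for PolII from randomized data and given as the highest of the replicates. Column headings put the smallest height at 0.1 for Ets21c, where the methods have 0.3, and Ets21c heights reach down to 0.14. For PolII in ECs the heading has 0.2 and heights begin at 0.30. The methods name dm6 and the submitters' notes dm3, and no peak positions were used here. Genes were matched by symbol, and for shares of all genes by ID or synonym too, to the 17873 genes of Ensembl release 115 (FlyBase 6.54, dm6), whose coordinates are given above. Sequences were read from the RefSeq release of the same assembly. Neighbors lay within 5 kb, and a shared peak required equal height and FDR within 20 kb. A gene starts at its outermost annotated base. Named were the 10 genes, listed genes of the wider pathway, genes sharing a peak and the 2 most like genes by height. Other neighbors were chosen after their values were seen. Members and lists were chosen with earlier results of these data known. Current symbols Fur1, Fur2 and Fkbp12 replaced older ones. No test was run, since the table has 1 value per gene and list. Alternatives were stricter heights and FDRs, matching by ID, percentiles, and other backgrounds. Analyses used python 3.11.15, numpy 2.4.6 and matplotlib 3.10.9.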

Additional observations from a re-analysis of the deposited data

How the results depend on the processing

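Of 46 alternatives, 40 stayed within 1.5 times the reported value. At a height of at least 0.5, the core genes fell from 8 to 5 in the Ets21c list of ISCs/EBs and from 1 to 0 in the PolII list of ECs, and the wider genes fell from 6 to 3 for PolII in ISCs/EBs and from 14 to 7 for Ets21c in ECs. At an FDR of at most 0.001 the wider genes fell from 17 to 10 for Ets21c in ISCs/EBs, and the core genes in the PolII list of ISCs/EBs from 6 to 4, without sax and put. These settings keep fewer genes by construction. Of all genes in the Ets21c lists, 41.5% in ISCs/EBs and 46.7% in ECs lay below 0.5. Among genes at least as long as gbb, 19.8% had PolII in ISCs/EBs. By gene ID, Med was not found and the Ets21c counts of the core genes were 7 in each cell type, since its ID has changed. Directions between cell types held by percentile, with 6 of 8 higher in ISCs/EBs. No paired analysis was possible because the table has 1 pooled value per gene and list, and leaving out a replicate could not be run for the same reason. Read depth is unknown.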
